A study of Arabidopsis thaliana with 24 samples.

Results

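Transcript levels of 7 Arabidopsis thaliana genes for antioxidant defence and glutathione conjugation were followed in roots and rosette leaves of plants given nano-titania, nano-ceria or the matching control solutions. The genes were CCS, TAPX, GR, GR1, MSRB5, GSTU20 and GSTU23. Each was represented by 1 probe set that the array annotation assigns to that gene alone, so 7 of the 22746 probe sets on each array were followed. Probe sets pointing to a single gene named 13356 genes in all.

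Hydrogen peroxide and superoxide arise in chloroplasts, mitochondria and peroxisomes, and plants remove them with superoxide dismutases, peroxidases and the ascorbate-glutathione cycle. In that cycle ascorbate peroxidase spends ascorbate to reduce hydrogen peroxide, and glutathione reductase uses NADPH to restore the glutathione from which ascorbate is regenerated. Oxidised methionine in proteins is repaired by methionine sulfoxide reductases, and tau-class glutathione transferases, a plant-specific class, join glutathione to reactive or foreign molecules.

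The plants were of the Col-0 ecotype, grown in potting medium and harvested at 29 days. In each tissue there were 4 groups of 3 arrays, labelled as biological replicates, for 24 arrays of the ATH1 design. TiO2 plants were watered with nano-titania at 500 mg/L suspended in KCl, and KCl plants with the salt solution alone, so the TiO2 plants received the salt too. CeO2 plants were watered with nano-ceria at 500 mg/L in millipore water, and water plants with that water alone. Watering with these liquids took place on days 0, 4 and 17. The salt is given as 0.1 mM in the sample descriptions and as 0.1 M in the treatment protocol. All values are log2 signals, so a difference of 1 is a doubling. Errors are the SD over 3 arrays for group means and the standard error for differences.

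The labelled tissues were borne out by their markers. The mean of 5 photosynthesis genes lay between 10.6 and 12.5 on leaf arrays and between 4.14 and 6.44 on root arrays, and the mean of 4 root genes lay between 9.03 and 11.4 on root arrays and at most 6.21 on leaf arrays. Array medians ran from 4.96 to 5.15 and correlations within groups from 0.873 to 0.990. A lower quartile above 3.7 marked 6 arrays, called the narrower arrays here by that cut alone, as upper quartiles were not compared. Among roots these were TiO2 replicate 2, KCl replicates 1 and 3 and water replicate 1, and among leaves KCl replicate 2 and CeO2 replicate 2. In whole organs, fewer cells of a type and less RNA per cell cannot be told apart. Detection calls were not used here, so a low signal cannot be read as absence, nor as a level above background. This holds for TAPX in roots and for GSTU23 in leaves and in TiO2, CeO2 and water roots, whose group means reached at most 5.07. Differences and folds against these groups are of signals.

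On the TAIR10.1 assembly, with positions from RefSeq, CCS (AT1G12520) lies on chromosome 1 from 4267074 to 4268982 and TAPX (AT1G77490) on chromosome 1 from 29117500 to 29121093. GR (AT3G54660) occupies chromosome 3 from 20229637 to 20233211, and GR1 (AT3G24170) chromosome 3 from 8729354 to 8734624. MSRB5 (AT4G04830) is on chromosome 4 from 2445775 to 2447086, between MSRB4 (2441241 to 2442785) and MSRB6 (2449434 to 2451651), with MSRB3 (2439520 to 2441205) on the far side of MSRB4. GSTU20 (AT1G78370) and GSTU23 (AT1G78320) belong to the same stretch of chromosome 1, at 29484120 to 29485389 and 29467412 to 29468394. GSTU22 (29472845 to 29474003) and GSTU21 (29481869 to 29483009) lie between them. These 4 tau transferases, MSRB3, MSRB5 and MSRB6 had a probe set of their own, and MSRB4 was not measured here. How far related copies hybridise to each other's probes was not tested.

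**Figure D1:**
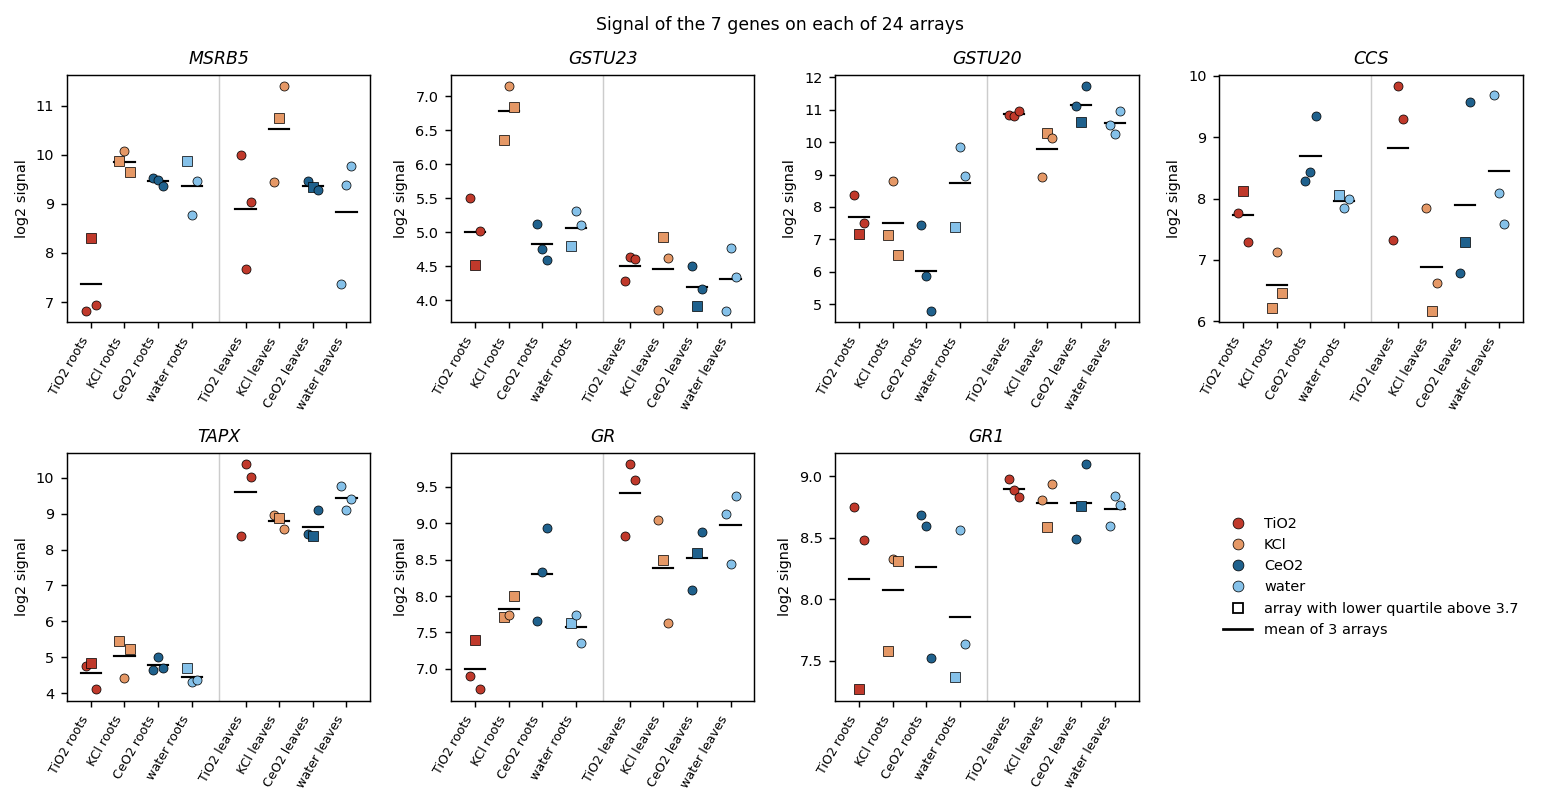
Log2 signal (vertical axis) of the 7 genes on each of the 24 arrays, by group (horizontal axis), with roots left of leaves and a bar at the mean of 3 arrays. Squares mark arrays with a lower quartile above 3.7. The TiO2 roots sit below all other root arrays for MSRB5, and the KCl roots sit above all other root arrays for GSTU23 and below them for CCS.

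TiO2 against KCl in roots was the treatment comparison in which members passed the threshold. Of the 7 genes, 2 passed as lower, MSRB5 and GSTU23, and none as higher. Over all probe sets 0.347% passed this test at an adjusted p under 0.05, with 0.145% lower and 0.202% higher. Arrays of TiO2 and KCl roots did not overlap for 4 of the 7 genes, CCS, GR, MSRB5 and GSTU23, against 15.3% of all probe sets. The members were chosen with earlier results of these data known. Counts of members beside shares of all probe sets, here and below, are therefore descriptions and no test of the set. The median difference of the 7 genes was -0.47, with 3 above 0 and 4 below. Over all probe sets the median was -0.06, and 43.4% were above 0.

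MSRB5 encodes a methionine sulfoxide reductase of the B type, which repairs the R form of methionine sulfoxide in proteins. Its signal was 6.81, 8.31 and 6.95 in TiO2 roots, against 9.87, 10.07 and 9.65 in KCl roots. In CeO2 roots it was 9.53, 9.48 and 9.37, against 9.88, 8.78 and 9.46 in water roots. All 3 TiO2 root arrays lay below the other 9 root arrays, a placement found for 0.55% of all probe sets. MSRB5 averaged 7.36 ± 0.83 in TiO2 roots and 9.86 ± 0.21 in KCl roots, a fall by 2.50 ± 0.39, or 5.67-fold (95% interval -3.38 to -1.63, adjusted p = 0.0333). Against water roots, a comparison added after seeing the data, MSRB5 in TiO2 roots stood at -2.01 ± 0.39 (adjusted p = 0.696, unadjusted p = 0.000428). In that added comparison 0.0044% of all probe sets passed and no member did. The same comparison in leaves had 0% of all probe sets passing with limma, with 7.91% at an unadjusted p under 0.05, and no member among either.

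Without the narrower arrays, which leaves 1 KCl array, the difference of MSRB5 was -3.19 (adjusted p = 0.142). With 1 array left out in turn it ran from -2.98 to -2.23. Its adjusted p was 0.00778 without replicate 2 of the TiO2 roots and missed the threshold without any 1 of the other 5 arrays, at 0.0663 to 0.157. MSRB5 in CeO2 roots differed from water roots by 0.09 ± 0.39 (95% interval -0.79 to 0.96). The TiO2 difference minus the CeO2 difference of MSRB5 in roots was -2.59 ± 0.56 (adjusted p = 0.0811), and 0.572% of all probe sets passed that test of the difference. Without replicate 2 of the TiO2 roots that value was -3.07 and passed (adjusted p = 0.0149).

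In leaves, MSRB5 had 9.996, 7.68 and 9.03 in TiO2 plants, against 9.45, 10.74 and 11.41 in KCl plants. CeO2 leaves had 9.46, 9.34 and 9.29, against 7.37, 9.39 and 9.77 in water leaves. The TiO2 and KCl leaves overlapped, and the lowest leaf arrays were 1 of the TiO2 and 1 of the water leaves. The TiO2 difference of MSRB5 in leaves was -1.63 ± 0.74 (adjusted p = 0.325), and the root minus leaf value of the TiO2 difference was -0.87 ± 0.87 (adjusted p = 0.814). The 95% interval of that value ran from -2.70 to 0.96, so the MSRB5 responses of the tissues were not shown to differ.

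GSTU23 is a tau-class glutathione transferase, and its root signal set the KCl plants apart. It was 5.50, 4.52 and 5.02 in TiO2 roots, against 6.36, 7.16 and 6.84 in KCl roots. CeO2 roots had 5.12, 4.76 and 4.60, against 4.80, 5.31 and 5.10 in water roots. The 3 KCl arrays lay above the other 9 root arrays, as they did for 2.19% of all probe sets, and the remaining 3 groups overlapped one another. GSTU23 averaged 5.01 ± 0.49 in TiO2 roots and 6.79 ± 0.40 in KCl roots, a fall by 1.77 ± 0.30, or 3.42-fold (95% interval -2.43 to -1.11, adjusted p = 0.0431).

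KCl against water in roots gave GSTU23 a difference of 1.71 ± 0.30, or 3.28-fold, which missed the threshold (adjusted p = 0.0573). It passed when the arrays were quantile-normalized again (1.79, adjusted p = 0.0352). TiO2 roots and water roots differed in GSTU23 by -0.06 ± 0.30 (95% interval -0.72 to 0.60). The TiO2 difference and the KCl difference share the KCl arrays and are not independent of each other. Leaving out 1 array in turn kept the TiO2 call of GSTU23 without replicate 1 of the KCl roots (adjusted p = 0.0415) and without replicate 2 of the TiO2 roots (adjusted p = 0.0395). It was lost without any 1 of the other 4 arrays, at an adjusted p of 0.0705 to 0.172.

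In leaves GSTU23 was low in every group, at 4.29, 4.64 and 4.60 in TiO2 leaves, against 3.86, 4.93 and 4.62 in KCl leaves. CeO2 leaves had 4.51, 3.91 and 4.17, against 3.84, 4.77 and 4.34 in water leaves. All 4 leaf groups overlapped. The root minus leaf value of the TiO2 difference of GSTU23 was -1.81 ± 0.44 (adjusted p = 0.0912), where 0.207% of all probe sets passed. That test misses the threshold, so the responses of the tissues were not shown to differ.

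CCS, the chaperone that hands copper to the copper-zinc superoxide dismutases, had root groups that stood apart without a call. Its signal was 7.76, 8.12 and 7.30 in TiO2 roots, against 6.22, 7.12 and 6.46 in KCl roots. CeO2 roots had 8.28, 8.44 and 9.34, against 8.05, 7.84 and 7.99 in water roots. The KCl roots lay below all 9 other root arrays, as for 1.72% of all probe sets, and the CeO2 roots above all 9 others, as for 1.07%. The root order was therefore KCl, TiO2, water and CeO2, of which only TiO2 and water overlapped.

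None of these CCS differences passed. CCS was at 1.12 ± 0.34 in TiO2 against KCl roots (2.18-fold, adjusted p = 0.179). It was at -1.36 ± 0.34 in KCl against water roots (adjusted p = 0.130) and at 0.72 ± 0.34 in CeO2 against water roots (adjusted p = 0.762). Without the narrower arrays the TiO2 value was 0.405, resting on 1 KCl array. In leaves CCS spread widely within groups, with 7.32, 9.84 and 9.29 in TiO2 leaves against 7.85, 6.17 and 6.63 in KCl leaves. CeO2 leaves had 6.79, 7.30 and 9.58, against 9.69, 8.08 and 7.58 in water leaves. The SD of CCS was 0.87 to 1.49 in the leaf groups and 0.11 to 0.57 in the root groups, and no leaf neighbours were apart. The TiO2 difference of CCS in leaves was 1.94 ± 0.89 (95% interval -0.05 to 3.92, adjusted p = 0.333).

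GR, a glutathione reductase of chloroplasts and mitochondria, had 6.90, 7.39 and 6.72 in TiO2 roots, against 7.71, 7.74 and 8.01 in KCl roots. CeO2 roots had 7.65, 8.33 and 8.94, against 7.62, 7.75 and 7.36 in water roots. The TiO2 roots were below the KCl and CeO2 roots on every array and overlapped the water roots by 1 array. In leaves GR was at 8.83, 9.81 and 9.60 with TiO2, against 9.04, 8.50 and 7.63 with KCl. CeO2 leaves had 8.09, 8.59 and 8.89, against 9.13, 8.44 and 9.37 in water leaves, and all leaf neighbours overlapped.

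The TiO2 difference of GR was -0.82 ± 0.31 in roots (adjusted p = 0.300) and 1.02 ± 0.41 in leaves (adjusted p = 0.283). Tested directly, the root minus leaf value was -1.84 ± 0.53 (95% interval -2.94 to -0.73, adjusted p = 0.156), so the opposite signs did not pass. Between particles, the TiO2 difference minus the CeO2 difference of GR in roots was -1.55 ± 0.44 (adjusted p = 0.161). In leaves the same difference was 1.48 ± 0.58 (adjusted p = 0.378), where 0.0176% of all probe sets passed and no member did. The TiO2 difference was lower in roots than in leaves for all 7 genes, while 49.7% of all probe sets lay above 0. Of these values GR1's was -0.03 and changed sign in 7 of 18 alternatives, and no member passed.

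GR1 is the glutathione reductase of cytosol and peroxisomes, and none of its treatment differences passed. Root arrays of GR1 ranged from 7.26 to 8.75 in TiO2 plants, from 7.58 to 8.32 in KCl plants, from 7.52 to 8.68 in CeO2 plants and from 7.37 to 8.56 in water plants. Leaf arrays lay between 8.49 and 9.10. Its TiO2 difference was 0.09 ± 0.48 in roots (95% interval -0.97 to 1.16) and 0.12 ± 0.17 in leaves (95% interval -0.27 to 0.51). For either particle the leaf intervals of GR1 stay within 0.51 of 0 on the log2 scale, while the root intervals reach 1.47.

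TAPX, the ascorbate peroxidase bound to thylakoid membranes, had 8.39, 10.39 and 10.02 in TiO2 leaves, against 8.96, 8.88 and 8.58 in KCl leaves. CeO2 leaves had 8.43, 8.38 and 9.10, against 9.79, 9.12 and 9.42 in water leaves. The CeO2 leaves were below the water leaves on every array, and the KCl leaves were too. The difference of TAPX was -0.81 ± 0.45 for CeO2 against water (adjusted p = 0.9995) and -0.63 ± 0.45 for KCl against water (adjusted p = 0.641). In roots TAPX ranged from 4.10 to 4.85 with TiO2, from 4.43 to 5.45 with KCl, from 4.65 to 5.02 with CeO2 and from 4.32 to 4.69 with water, with all neighbours overlapping.

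GSTU20, a tau-class transferase linked to light and jasmonate signalling, carried the largest particle difference of the 7 genes in roots without passing. It was at 7.45, 5.85 and 4.78 in CeO2 roots, against 7.39, 9.86 and 8.96 in water roots. TiO2 roots had 8.38, 7.18 and 7.50, against 7.14, 8.81 and 6.53 in KCl roots. One CeO2 array reached the lowest water array, so the groups overlapped. GSTU20 averaged 6.03 ± 1.34 in CeO2 roots and 8.74 ± 1.25 in water roots, a difference of -2.71 ± 0.83 (95% interval -4.55 to -0.87, adjusted p = 0.474). With 1 array left out in turn the value ran from -3.42 to -2.09.

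GSTU20 in leaves was at 10.84, 10.80 and 10.96 with TiO2, against 8.92, 10.28 and 10.12 with KCl. CeO2 leaves had 11.10, 10.63 and 11.74, against 10.55, 10.25 and 10.97 in water leaves. The TiO2 leaves lay above all KCl leaves, by 1.09 ± 0.38 on average (2.13-fold, adjusted p = 0.242). The CeO2 difference of GSTU20 was -3.28 ± 0.96 in roots minus leaves (adjusted p = 0.563), where 0.0044% of all probe sets passed.

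**Figure D2:**
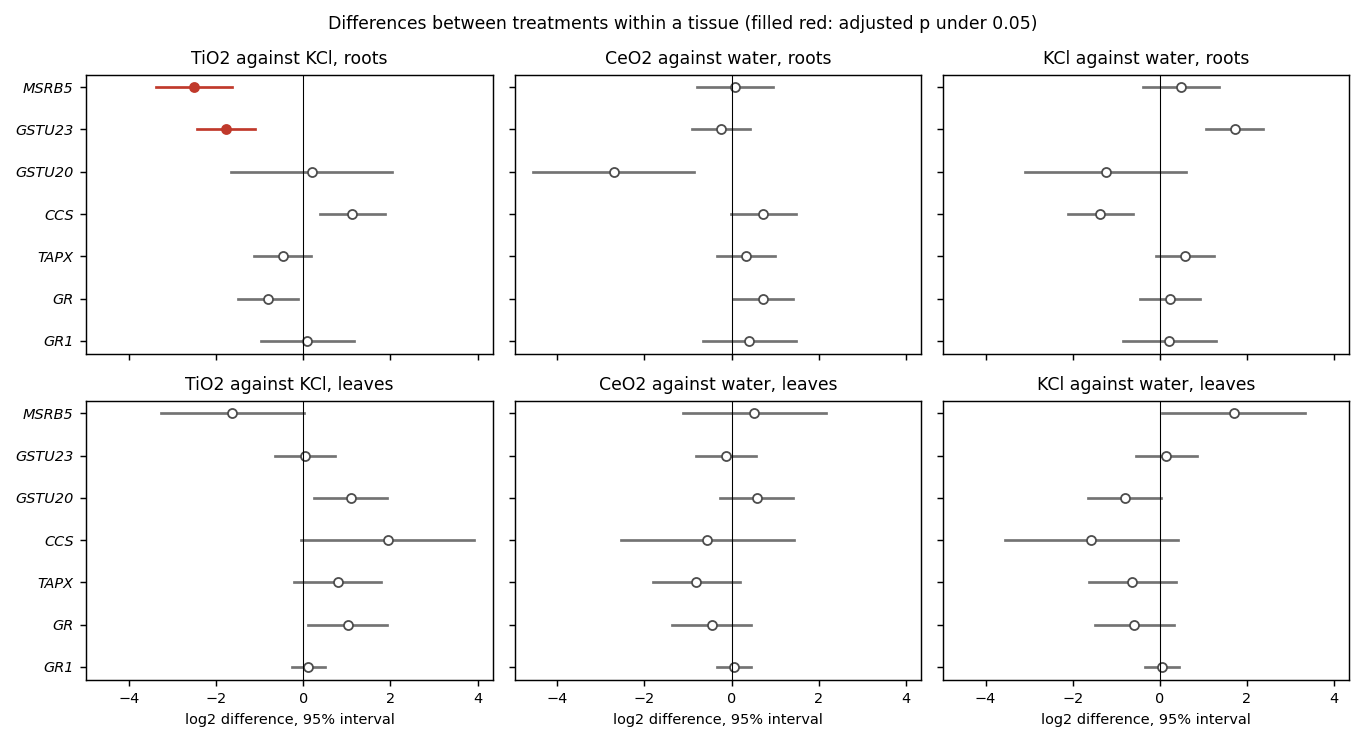
Log2 differences of the 7 genes (horizontal axis, with 95% intervals) in the 6 treatment comparisons, roots above and leaves below. The filled red points, MSRB5 at -2.50 and GSTU23 at -1.77 in TiO2 against KCl roots, are the values with an adjusted p under 0.05.

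No member passed the threshold in the other treatment comparisons in the plot of log2 differences. Some intervals there leave out 0, so a miss of the threshold does not show that a gene was unchanged. In CeO2 against water roots none of the 7 genes passed, where 0.0176% of all probe sets did. An unadjusted p under 0.05 was found for 2 members, GR and GSTU20, and for 6.7% of all probe sets. CCS alone had groups that did not overlap there, against 13% of all probe sets. The median of the 7 genes was 0.33, and that of all probe sets was -0.04. In roots of KCl against water plants none passed, where 0.119% of all probe sets did, and groups did not overlap for CCS and GSTU23, against 15.9%. The median of the 7 genes was 0.24 there, and that of all probe sets 0.03.

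No member passed in leaves either. In TiO2 against KCl leaves 0.022% of all probe sets passed, and groups did not overlap for 1 member, GSTU20, against 25.2% of all probe sets. The median of the 7 genes was 0.79, with 6 above 0. For all probe sets the median was -0.07, and 42.3% were above 0. CeO2 against water leaves had 0% of all probe sets passing with limma, although 503 probe sets, or 2.21%, had an unadjusted p under 0.05, none of them a member. Groups did not overlap there for TAPX alone, against 5.22%, and the members' median was -0.12 against 0.02 for all probe sets. For KCl against water leaves 0.189% of all probe sets passed, TAPX alone had groups apart, against 17.1%, and the members' median was -0.59 against 0.04. MSRB5 in KCl leaves exceeded water leaves by 1.69 ± 0.74 (adjusted p = 0.392).

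Marker genes moved alongside some of these values. The mean of the 5 photosynthesis markers was 5.27 to 6.44 in CeO2 roots and 4.44 to 5.36 in water roots, and 5.31 to 5.64 in TiO2 roots and 4.14 to 5.60 in KCl roots. The mean of the 4 root markers was 9.03 to 10.2 in TiO2 roots and 9.41 to 11.3 in KCl roots, with all 4 below 0 in difference. It was 11.1 to 11.4 in CeO2 roots and 10.004 to 10.9 in water roots. No marker passed in a treatment comparison, and the part of tissue makeup in the values of MSRB5, GSTU23 and GSTU20 was not tested.

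Other genes of the same pathways were read from lists, of which only a minority had a probe set of 1 gene. Of the ascorbate-glutathione cycle list 7 of 25 genes were measured, and none passed in any treatment comparison. SAPX, the stromal and mitochondrial ascorbate peroxidase, had the smallest p outside the members in TiO2 against KCl roots, at 0.66 ± 0.30 (adjusted p = 0.405). GLDH, which makes the last step of ascorbate synthesis, had it in CeO2 against water roots, at -0.86 ± 0.24 (adjusted p = 0.430). Of superoxide dismutases, copper delivery and catalases 2 of 16 were measured, CCS and AT3G56350, and AT3G56350 was at -0.22 ± 0.24 in TiO2 against KCl roots (adjusted p = 0.796). The group means of AT3G56350 were 3.43 to 3.85, so the limit on low signals holds for it too.

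Thiol peroxidases were measured for 3 of 17 genes, and none passed in a treatment comparison. AT3G11630 of that list was at 1.64 ± 0.53 in TiO2 against KCl leaves (adjusted p = 0.222). PRXIIF, the mitochondrial peroxiredoxin, was at -1.36 ± 0.28 in KCl against water roots (adjusted p = 0.0753). The phi-class transferases (2 of 13) and the oxidative stress markers (2 of 9) had no call in a treatment comparison either. GSTF4 was at 1.72 ± 0.83 (adjusted p = 0.446) and AT2G21640 at 0.59 ± 0.40 (adjusted p = 0.621) in TiO2 against KCl roots. In KCl roots their means were 5.09 and 4.59, so the limit on low signals holds there too.

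Within its own family MSRB5 was the 1 of 5 measured methionine sulfoxide reductases that passed in TiO2 against KCl roots. MSRB6, the next listed gene on the chromosome, was at -0.49 ± 0.37 (adjusted p = 0.668), and MSRB3 at 0.11 ± 0.74 (adjusted p = 0.973). The median of the 5 genes was -0.13. Members and lists were chosen with earlier results known, so a member's place in its family is a description and no test. Among 11 measured tau transferases of 28 listed, GSTU23 was the 1 that passed, and the list's median was -0.06. GSTU27 was next by p, at -1.05 ± 0.29 (adjusted p = 0.158). GSTU22, the next listed gene from GSTU23 on the chromosome, was at -0.76 ± 0.77 and GSTU21 at -0.17 ± 0.21. The group means of GSTU21 reached at most 3.82, a low signal.

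GSTU27 stood beside GSTU23 in the salt comparison. GSTU27 averaged 6.38 in KCl roots and 4.63 in water roots, a difference of 1.75 ± 0.29 (adjusted p = 0.0570). The limit on low signals holds for the water roots. In leaves it averaged 8.10 with KCl and 6.74 with water, a difference of 1.36 ± 0.25 (adjusted p = 0.0765). GSTU27 had the smallest p of its list in both tissues, and neither value passed. GSTU23 in leaves differed by 0.15 ± 0.31 between KCl and water plants (95% interval -0.54 to 0.84).

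In control plants 5 of the 7 genes differed between roots and leaves, 4 lower and 1 higher in roots. Over all probe sets 34.6% passed, with 15.4% lower and 19.2% higher. TAPX was lower in roots, at 4.75 in control roots and 9.12 in control leaves, a fall by 4.38 ± 0.28 (adjusted p = 7.88e-10). GSTU20 fell by 2.07 ± 0.48 (4.19-fold, adjusted p = 0.00222) and GR fell by 0.99 ± 0.26 (1.98-fold, adjusted p = 0.00649). GR1 fell by 0.79 ± 0.26 (1.73-fold, adjusted p = 0.0248). GSTU23 was the 1 member higher in roots, by 1.53 ± 0.22 (2.90-fold, adjusted p = 2.01e-05). CCS (-0.38 ± 0.50) and MSRB5 (-0.07 ± 0.44) did not pass, and the MSRB5 interval ran from -0.99 to 0.84.

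Some of these tissue values leaned on particular arrays. With 1 array left out in turn, TAPX, GR, GSTU20 and GSTU23 passed in 12 of 12 fits, and GR1 in 7 of 12. Without the 6 narrower arrays only TAPX (-4.72) and GSTU23 (1.90) passed, GR was at -1.01 (adjusted p = 0.0861), GR1 at -0.59 (adjusted p = 0.154) and GSTU20 at -0.95 (adjusted p = 0.220). GR1 also missed the threshold, at 0.0517 to 0.0699, without replicate 1 of the KCl roots, replicate 3 of the KCl leaves, replicates 1 or 3 of the water roots or replicate 2 of the water leaves. The GSTU23 value held 2 unlike root groups, with means of 6.79 in KCl roots and 5.07 in water roots, against 4.47 in KCl leaves and 4.32 in water leaves.

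In particle-treated plants 3 of the 7 genes differed between roots and leaves, all lower in roots. Over all probe sets 29.1% passed, with 13.6% lower. TAPX fell by 4.44 ± 0.28 (adjusted p = 7.01e-10), GSTU20 fell by 4.15 ± 0.48 (17.8-fold, adjusted p = 1.83e-06) and GR fell by 1.31 ± 0.26 (2.48-fold, adjusted p = 0.000772). GR1 (-0.63 ± 0.26, adjusted p = 0.0848) and GSTU23 (0.56 ± 0.22, adjusted p = 0.0614) did not pass. For GSTU23 the value passed after renewed quantile normalization (0.57, adjusted p = 0.0474), after centring each array (0.61, adjusted p = 0.0404) and without the narrower arrays (0.62, adjusted p = 0.0483). It also passed without replicate 2 of the TiO2 roots (0.69) or replicate 1 of the CeO2 leaves (0.64), and GR1 without replicate 1 of the TiO2 roots (-0.77).

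**Figure D3:**
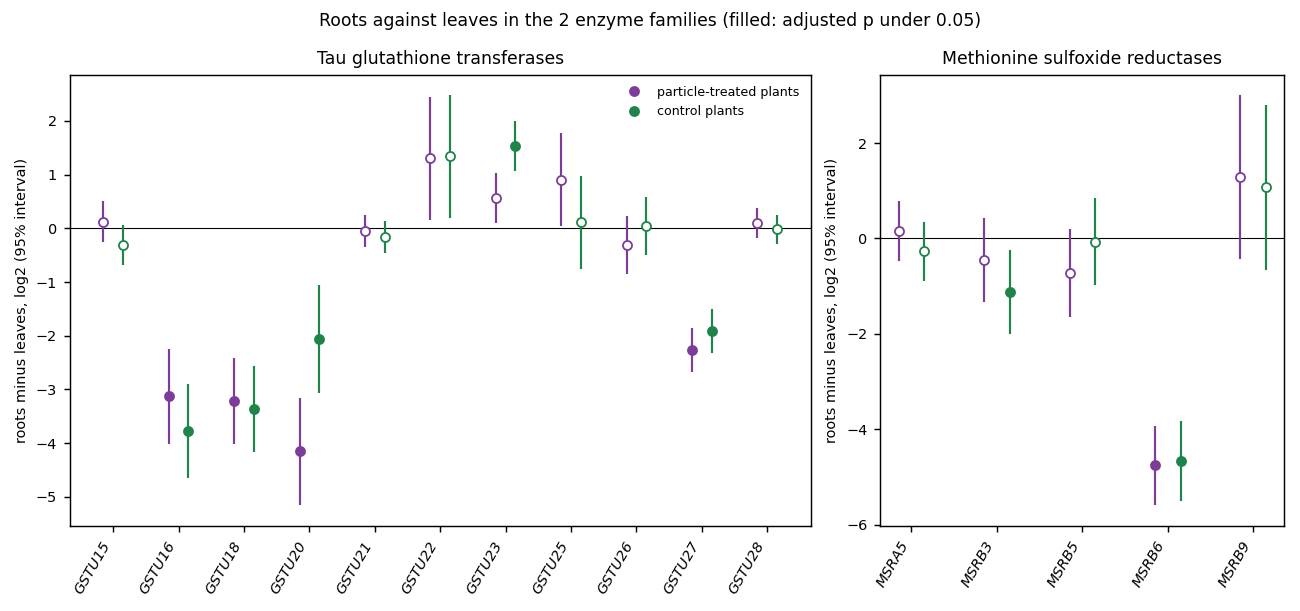
Roots minus leaves in log2 units (vertical axis, with 95% intervals) for the measured tau glutathione transferases and methionine sulfoxide reductases, in particle-treated and control plants. Filled points have an adjusted p under 0.05. MSRB6 lies at -4.76 and -4.68 and MSRB5 at -0.72 and -0.07 in particle-treated and control plants, and GSTU20 lies below 0 where GSTU23 lies above it.

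The families of MSRB5 and of the transferases were not uniform between tissues, as the plot of roots minus leaves shows. In control plants, where 15.4% of all probe sets were lower and 19.2% higher in roots, 2 of 5 methionine sulfoxide reductases were lower and none was higher. MSRB6 fell by 4.68 ± 0.40 (adjusted p = 3.67e-08), and MSRB3, an enzyme of the endoplasmic reticulum, fell by 1.12 ± 0.42 (adjusted p = 0.0434). In particle-treated plants, where 13.6% of all probe sets were lower, 1 of the 5 was, MSRB6 (-4.76 ± 0.40), and MSRB3 was at -0.45 ± 0.42 (adjusted p = 0.491). Of 11 tau transferases 4 were lower in control roots and 1, GSTU23, was higher. The others besides GSTU20 were GSTU16 (-3.77 ± 0.42), GSTU18 (-3.36 ± 0.38) and GSTU27 (-1.92 ± 0.19). Root group means reached at most 4.81 for MSRB6 and 4.17 for GSTU16, so the limit on low signals holds for them in roots. It holds for GSTU27 in water roots too, at 4.63. In particle-treated plants 4 of the 11 were lower in roots and none was higher. All 3 thiol peroxidases were lower in roots, at -1.86 to -1.06 in control plants. Of the other lists AT2G21640 was lower in roots of control plants (-1.53 ± 0.31) and of particle-treated plants (-1.24 ± 0.31), and GSTF4 was higher in roots of particle-treated plants (2.28 ± 0.50, adjusted p = 0.00171). The limit on low signals holds for AT2G21640 in KCl, CeO2 and water roots, with means of 4.33 to 4.79. It also holds for GSTF4 in leaves, with means of 4.05 to 4.69.

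Across the 12 leaf arrays, Pearson's r passed for TAPX with CCS and with GR, while Spearman's rho missed the threshold for both pairs. MSRB5 was correlated negatively with CCS by both measures. Both were computed for the 21 pairs of members in each tissue, with permutation p adjusted over the 42 pairs. The permutations moved arrays between groups, so these p values do not set group differences aside. After removing the group means, r was 0.802 for CCS and TAPX and 0.709 for TAPX and GR. CCS and TAPX had r = 0.795 and rho = 0.783 (adjusted permutation p = 0.0285 and 0.0546), with r = 0.657 without the 2 farthest arrays. TAPX and GR had r = 0.805 and rho = 0.741 (adjusted permutation p = 0.0251 and 0.0666), with 0.619 without the 2 farthest. CCS and GR had r = 0.724 and rho = 0.748, which missed the threshold (adjusted permutation p = 0.0620 and 0.0666), with 0.633 without the 2 farthest. CCS and MSRB5 had r = -0.829 and rho = -0.874 (adjusted permutation p = 0.00588 and 0.0139), with -0.698 without the 2 farthest arrays and -0.746 after removing the group means. MSRB5 against TAPX or GR had r = -0.687 in each case and did not pass (adjusted permutation p = 0.0826), and for GR it was -0.325 without the 2 farthest arrays.

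The photosynthesis markers moved with the same genes among leaves. Against the mean of the 5 markers GR had r = 0.898 and rho = 0.888 (adjusted permutation p = 0.00210 and 0.00336 over 14 relations), 0.869 without the 2 farthest arrays and 0.909 within groups. TAPX had r = 0.832 and rho = 0.685 (adjusted permutation p = 0.00553 and 0.0602), and 0.627 without the 2 farthest. CCS had r = 0.732 and rho = 0.748 (adjusted permutation p = 0.0316 and 0.0474), and 0.628 without the 2 farthest. MSRB5 had r = -0.580 and rho = -0.580 (adjusted permutation p = 0.159 and 0.146). The marker mean was 11.7, 12.5 and 12.4 in TiO2 leaves, against 11.9, 11.4 and 10.9 in KCl leaves, so the 2 TiO2 leaf arrays highest in GR and TAPX were also highest in the markers. The part of the markers in the leaf values was not tested.

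The lower quartile of an array, high on the narrower arrays, also moved with some members. Over 14 such relations, CCS in leaves had r = -0.682 and rho = -0.825 (adjusted permutation p = 0.0706 and 0.0114), with r = -0.684 without the 2 farthest arrays and -0.608 within groups. Of the leaf relations the rank correlation of CCS passed. TAPX had r = -0.543 and rho = -0.692 in leaves (adjusted permutation p = 0.222 and 0.0572), and GR had r = -0.448 and rho = -0.692 (adjusted permutation p = 0.316 and 0.0572). MSRB5 in leaves had r = 0.399 and rho = 0.601 (adjusted permutation p = 0.360 and 0.123). In roots GR1 had r = -0.746 and rho = -0.839 (adjusted permutation p = 0.0706 and 0.0114), with r = -0.688 without the 2 farthest. GSTU23 in roots had r = 0.111 over all root arrays. Within root groups r was -0.95 for GSTU23, -0.80 for GR1, -0.74 for GSTU20 and 0.70 for TAPX. It was 0.52 for MSRB5, 0.36 for GR and -0.05 for CCS. No p was computed for r within groups. The part of the lower quartile in these levels, and in the correlations between members, was not tested.

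In roots CCS and GSTU23 had r = -0.800 and rho = -0.811 over the 12 arrays (adjusted permutation p = 0.0251 and 0.0466). The KCl arrays stood apart for both genes, so the pooled values hold that group difference. Within groups their r was -0.114.

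**Figure D4:**
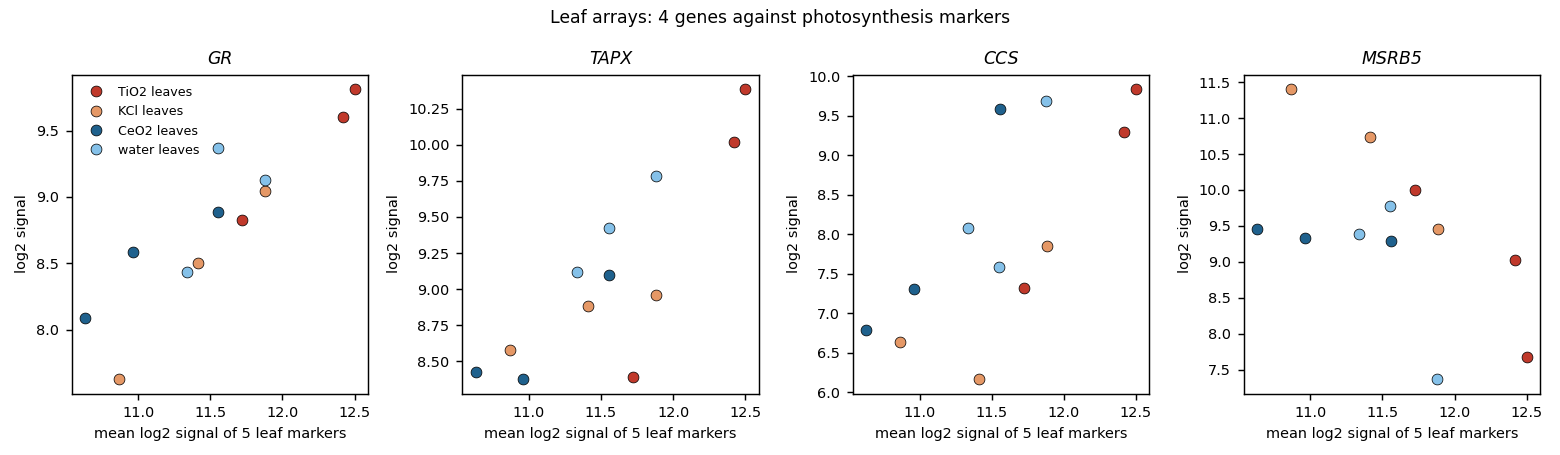
Log2 signal of GR, TAPX, CCS and MSRB5 (vertical axes) on the 12 leaf arrays against the mean log2 signal of 5 photosynthesis markers (horizontal axis), 1 point per array. GR, TAPX and CCS lie higher where the markers are higher (r = 0.898, 0.832 and 0.732), and MSRB5 lies lower (r = -0.580, not passing).

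The genes most like each member were sought among 13435 other single-gene probe sets, by Pearson's r over the 24 arrays after removing each tissue's mean. Arrays, treatments and normalization are shared by these pairs, so r is a description. For GR the nearest were AT4G03200 (0.898), AT5G04440 (0.853) and AT5G14260 (0.844), and for CCS they were AT3G25660 (0.862), AT4G03820 (0.854) and AT3G11630 (0.854). The last of these was on the list of thiol peroxidases. TAPX was nearest to AT3G29185 (0.831), AT3G48420 (0.828) and AT1G69523 (0.827), and GR1 to AT5G43790 (0.837), AT5G06830 (0.796) and AT1G27030 (0.785). MSRB5 was nearest to AT2G41480 (0.797), AT4G13860 (0.773) and AT5G42370 (0.755). GSTU20 was nearest to AT1G45688 (0.841), AT5G41460 (0.821) and AT3G01810 (0.812). GSTU23 was nearest to AT4G20230 (0.812), AT4G04790 (0.807) and AT2G23360 (0.806). Its r was higher on the root arrays (0.868 to 0.934) than on the leaf arrays (0.191 to 0.355), where its signal was low. The same order held for GR1 (roots 0.827 to 0.908, leaves 0.442 to 0.599). It held for GSTU20 too (roots 0.861 to 0.888, leaves 0.549 to 0.783).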

How the data were processed

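Total RNA of roots and leaves was labelled from 15 ug per array, per the labels' protocols. The deposited values are log2 signals that the authors obtained with RMA, per the submitters' processing notes. Its version, and whether roots and leaves were normalized jointly, are not given in the sources used here. Of 22746 probe sets, the annotation pointed 13513 to 1 gene, 503 to several and 8730 to none, and 13436 of the first kind matched a locus. The values were used as deposited, with no filter.

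Models with a mean per group were fitted in limma 3.58.1 (R 4.3.3), over the 12 arrays of a tissue, or all 24 for comparisons between tissues. Tests were two-sided, and p values were adjusted by Benjamini-Hochberg over all 22746 probe sets within each of 14 comparisons. In each fit the p values rest on 1 spread per probe set, shared by all groups of the fit and moderated across probe sets. For MSRB5 in roots the group SD ran from 0.08 with CeO2 to 0.83 with TiO2. With the compared groups alone, TiO2 against KCl in roots had an adjusted p of 0.137 for MSRB5 and 0.15 for GSTU23. The number of arrays, 3 a group, limits the precision. TiO2 against water was added in each tissue after seeing the data. Correlations used 100000 permutations of the arrays of a tissue, across its groups. Python 3.11.15, pandas 2.3.3 and matplotlib 3.10.9 did the rest, and the fit was tested on simulated data.

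The members and the lists were chosen with earlier results of these data known. All 7 members are named, then up to 4 passing genes of each list per comparison, or the 1 with the smallest p. Neighbours of a member on the chromosome and in the family plot were named for their place. For each member the 3 genes most like it are named. Alternatives were another normalization, centring, a filter on low means, a replicate block, leaving out the 6 narrower arrays or each array in turn, fitting the compared groups alone, and a robust variance trend. The labels do not say whether replicate numbers pair the arrays, within a tissue or between roots and leaves. Comparisons between tissues took root and leaf arrays as independent, and pairing between tissues was not checked. Same-numbered arrays of KCl and water roots deviated together (r 0.176 to 0.374 over 3 pairs), and replicate 1 was a narrower array in both groups. In the other 5 treatment comparisons at least 1 pair did not. The parts of pairing and of the lower quartile in these correlations were not tested. Sequences are not shown here.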

Additional observations from a re-analysis of the deposited data

How the results depend on the processing

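Over 14 comparisons and 7 genes, 1437 of 1470 values kept their side of the threshold under an alternative. That total is mostly of values that did not pass. The calls in TiO2 against KCl roots were kept less often, in 5 of 13 alternatives for MSRB5 and in 4 of 13 for GSTU23. TiO2 against KCl in roots, with 2 members passing, had 1 with probe sets of low mean left out (MSRB5) and 1 with a robust variance trend (MSRB5). It had 0 when only the compared groups were fitted, 0 without the narrower arrays, where TiO2 roots kept 2 arrays and KCl roots 1, and 0 to 2 with 1 array left out. With the replicate number as a block it had 0 (MSRB5 adjusted p = 0.0666, GSTU23 adjusted p = 0.0829). Same-numbered arrays did not deviate together in that comparison, but the labels do not say whether the numbers pair the arrays. The block fit is therefore not set aside. Over all probe sets it had 79 calls, 34 with the replicate block, 3 with the compared groups alone, 0 without the narrower arrays, and 4 to 456 with 1 array left out, 456 being without replicate 2 of the TiO2 roots. Its split of 46 higher and 33 lower was 71 and 32 after centring and 56 and 52 after renewed quantile normalization. For KCl against water roots there were 0 members passing and 1 after renewed quantile normalization (GSTU23). Its 27 calls over all probe sets were 0 with the replicate block, and no call of a member changed with it. Same-numbered arrays deviated together in that comparison, but a pairing by number is not given in the labels. For the other comparisons whose count over all probe sets moved by more than 1.5 times, the range over the alternatives was 0 to 4 for CeO2 against water in roots (4 as reported), 0 to 135 for TiO2 against KCl in leaves (5), 3 to 122 for KCl against water in leaves (43, and 122 with the block), 5 to 187 for the TiO2 against CeO2 difference in roots (130) and 0 to 11 for it in leaves (4). It was 2 to 201 for the root minus leaf TiO2 difference (47), 0 to 3 for that of CeO2 (1), 0 to 1 for TiO2 against water in roots (1) and 0 to 2 for it in leaves (0). The TiO2 against CeO2 difference in roots had 0 members passing, and 0 to 1 with 1 array left out. Roots against leaves in control plants had 5, and 2 without the narrower arrays. Centring shifted the all-probe-set median by over 0.1 for KCl against water in roots (-0.12), the TiO2 against CeO2 difference in roots (0.13) and leaves (-0.11), and the root minus leaf TiO2 difference (0.19). No called value changed sign. The cause of these changes was not tested, beyond the fewer arrays or probe sets that some alternatives use.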
